A study of Mus musculus with 20 samples.

Results

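The core spliceosome, Sm/LSm and SR protein genes are 46 of the 31053 genes counted in these libraries. They were chosen by name, from a list of splicing components, and not by their levels, although earlier results of these data were known. They comprise the 7 Sm ring genes, 3 genes for U1 snRNP proteins, 10 for U2 snRNP proteins, both U2AF subunits, 8 genes for the U4/U6.U5 tri-snRNP and the Prp19 complex, 7 LSm genes and 9 genes for SR proteins and their relatives. Every member had at least 86 UMIs in B-like cells of each library and at least 6 in T-like cells. All 46 passed the low-count filter in every comparison reported here.

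Introns are removed by the spliceosome, which is assembled on each transcript from small nuclear ribonucleoproteins (snRNPs) that hold a short RNA and a set of proteins. Sm proteins form a ring around the U1, U2, U4 and U5 RNAs, the LSm proteins form the matching ring on U6, and SR proteins bind exons and guide the snRNPs to splice sites. PRMT5, the arginine methyltransferase that the Eµ-PRMT5 transgene encodes, methylates arginines in the Arg-Gly tails of several Sm and LSm proteins within the methylosome, a step that precedes loading of the ring by the SMN complex.

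Unselected live cells from spleens and sub-mandibular lymph nodes of mice labelled C57BL/6N were profiled by droplet-based 3′ single-cell RNA sequencing, in which each molecule is counted once through its molecular identifier (UMI). The 20 libraries came from 13 mice: spleens of Eµ-PRMT5 mice (n = 5), which carry a human PRMT5 cDNA under a heavy chain variable promoter and the IgH µ enhancer, spleens of Eµ-TCL1 mice (n = 4), which carry human TCL1 and develop a leukemia resembling chronic lymphocytic leukemia, and spleens of Eµ-PRMT5/TCL1 mice with both transgenes (n = 4). Lymph nodes came from 3 Eµ-TCL1 and 4 Eµ-PRMT5/TCL1 mice whose spleens are among those above. Tissue was taken when removal criteria were met, the labels give no treatment and no ages, and spleens of non-transgenic mice were not analysed here. All mice carry at least 1 transgene, the enhancer acts in B cells, 1 Eµ-PRMT5 spleen carries the name of a founder line, and the human transgenes were not counted here as genes of their own.

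Of 84231 cells kept, 40982 were B-like and 32742 T-like by marker genes, with smaller classes of plasma-like, monocyte/macrophage-like, granulocyte-monocyte progenitor-like and neutrophil-like cells. In several B-like clusters most cells came from 1 library, and immunoglobulin V genes were among the leading genes. Such clusters came to 84.8%, 99.8% and 91.7% from Eµ-TCL1 spleens 2, 3 and 4 and to 99.8% from Eµ-PRMT5 spleen 4. For Eµ-PRMT5/TCL1 spleens 1, 3 and 4 the shares were 79.0%, 77.1% and 84.2%. Another B-like cluster had 48.5% of its cells from Eµ-PRMT5 spleen 3. Genotype and clone cannot be told apart in comparisons of B-like cells. All 10 B cell markers had a median of at least 10 counts per 1000000 (CPM) in the B-like class, where T cell markers summed to 28.0 to 508 CPM, and all 10 T cell markers did in the T-like class, where B cell markers summed to 25.5 to 503 CPM. Monocyte/macrophage markers summed to 227 to 898 CPM in the T-like class, and erythroid markers to at most 892 CPM. The libraries held between 9348094 and 72440894 UMIs, and cell barcodes shared between libraries numbered 4556 over 190 pairs of libraries against 4537 expected by chance. CPM is a gene's UMIs per 1000000 UMIs of all cells of that class in 1 library, and it covers a share of the class's RNA, so more RNA of a gene per cell and less of other RNA cannot be told apart.

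A pair of spleens stood apart, and most counts, list medians and the members they moved most are also given without them. In Eµ-PRMT5 spleen 4, 75.8% of B-like cells were cycling, here defined as having at least 0.05% of their UMIs in 24 cell cycle genes none of which is a member, where the remaining spleens of that genotype had 0.70% to 2.44%. Its B-like cells had a median of 18261 UMIs, and it held 46 T-like cells. In Eµ-PRMT5/TCL1 spleen 4, genes with short coding sequences were low in both B-like and T-like cells, as described below. Snrpe, which has a short coding sequence, was also low in its smaller classes. It was at 62.2 CPM in monocyte/macrophage-like cells (others 221 to 437), 31.6 CPM in neutrophil-like cells (95.2 to 220) and 33.2 CPM in plasma-like cells (72.7 to 239.7).

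The arginines that PRMT5 methylates lie in stretches of Arg-Gly pairs, which are shown for 2 members because they mark the Sm genes that connect this list to the transgene. The coding sequences below were read from GENCODE transcripts on GRCm38, each spans 2 exons of the gene on the strand given, and capitals mark in-frame Arg-Gly codon pairs. The Snrpb stretch (codons 112 to 148, chr2:130173151-130173693, minus strand) holds 3 pairs. The Snrpd3 stretch (codons 97 to 119, chr10:75532339-75535298, plus strand) holds 5.
Snrpb: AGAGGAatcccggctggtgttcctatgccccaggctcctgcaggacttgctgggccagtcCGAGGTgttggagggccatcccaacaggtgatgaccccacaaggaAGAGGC
Snrpd3: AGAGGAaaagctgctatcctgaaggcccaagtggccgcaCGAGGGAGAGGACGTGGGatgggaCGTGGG
Among the Sm ring genes, the whole coding sequence of Snrpd1 held 10 such pairs, that of Snrpb 8 and that of Snrpd3 7, and the remaining 4 genes held 1 or 2. The data here are RNA levels, so methylation of these arginines was not measured.

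The Sm ring genes were measured in every library. Snrpb, which encodes SmB/B′, measured 339, 308, 356, 393 and 294 CPM in B-like cells of Eµ-PRMT5 spleens 1 to 5, 319, 275, 299.4 and 256 CPM with Eµ-TCL1 alone and 261, 275, 289 and 479.6 CPM with both transgenes. In lymph nodes it measured 338, 300.3 and 257 CPM in Eµ-TCL1 and 313, 283, 291 and 272 in Eµ-PRMT5/TCL1 mice. All 5 groups overlapped, and Eµ-PRMT5/TCL1 spleen 4 was the highest of the 20 libraries.

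Snrpd1 (SmD1) measured 260.4, 169.9, 235, 450.3 and 175 CPM in Eµ-PRMT5 spleens, 193, 132, 162 and 126 CPM with Eµ-TCL1 alone and 158, 176, 143 and 86.5 CPM with both, with 159, 149.6 and 145 and 192, 168, 169 and 189.7 in the corresponding lymph nodes of the TCL1-bearing genotypes. Snrpd2 (SmD2) measured 176, 154, 195, 319 and 189 CPM, 227.95, 190.4, 201 and 216 CPM and 202, 227, 207 and 60.7 CPM in the same order of spleens, with 216, 197 and 184 and 188, 174, 202 and 266 CPM in lymph nodes. Snrpd3 (SmD3) measured 153, 158, 188, 259 and 165 CPM, 144, 144, 131 and 123 CPM and 129.6, 180.5, 153 and 72.4 CPM in spleens and 119.8, 151 and 112 and 167, 124, 159 and 141 CPM in lymph nodes. Eµ-PRMT5 spleen 4 had the highest and Eµ-PRMT5/TCL1 spleen 4 the lowest value of all 20 libraries for each of these 3 genes.

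The smallest ring subunits are SmE, SmF and SmG. Snrpe (SmE) measured 367, 287, 343, 497 and 321.9 CPM in Eµ-PRMT5 spleens, 419, 297, 302 and 246 CPM with Eµ-TCL1 alone, 324, 329.7, 364 and 102 CPM with both, and 398, 306 and 227 and 344, 292, 372 and 437 in the lymph nodes. Snrpf (SmF) measured 281, 253, 281, 588 and 259.8 CPM, 349, 259.8, 296 and 177 CPM and 268, 319, 328 and 78.7 CPM in spleens and 315, 239 and 197 and 317.1, 236, 423 and 391 CPM in lymph nodes. Snrpg (SmG) measured 284, 259, 253, 497 and 209 CPM, 286, 186, 250.2 and 149 CPM and 222, 266, 271 and 70.7 CPM in spleens and 226, 187 and 154 and 256, 177, 259 and 294 CPM in lymph nodes. The same pair of spleens again held the highest and lowest values, and the groups overlapped for all 7 ring genes between any pair of spleen genotypes except for Snrpd3 between Eµ-PRMT5 and Eµ-TCL1. The share of all genes without overlap in that contrast is given below with Srsf7.

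**Figure D1:**
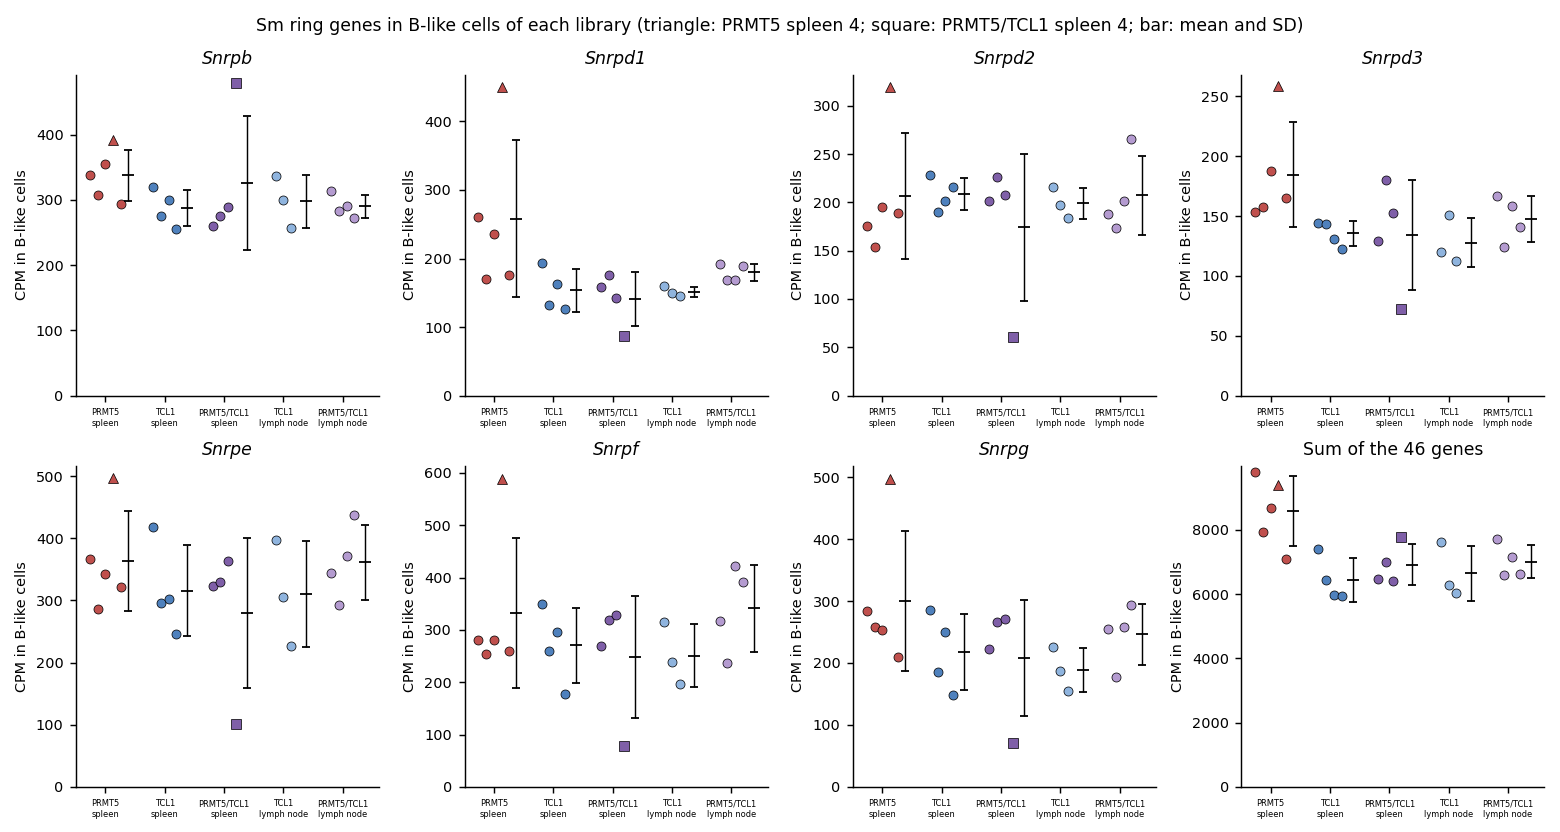
Level in CPM of each of the 7 Sm ring genes and of the sum of all 46 genes in B-like cells, 1 point per library in 5 groups (bars are the mean and SD). The triangle is Eµ-PRMT5 spleen 4, which reaches 588 CPM for Snrpf, and the square is Eµ-PRMT5/TCL1 spleen 4, which lies at 78.7 CPM.

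Summed over the 46 genes, B-like cells had 9794, 7927, 8693, 9403 and 7095 CPM in Eµ-PRMT5 spleens, 7391, 6451, 5986 and 5928 CPM with Eµ-TCL1 alone and 6472, 6998, 6402 and 7779.9 CPM with both. The lymph nodes had 7626, 6284 and 6038 CPM in Eµ-TCL1 and 7703, 6582, 7142 and 6638 CPM in Eµ-PRMT5/TCL1 mice. The Eµ-PRMT5 spleens held the highest sums, and their lowest value lay below the highest Eµ-TCL1 value. In T-like cells of the same libraries the sums were 7575, 6302, 6330.1, 8337 and 6374 CPM in Eµ-PRMT5 spleens, 6433, 6244, 5677 and 5634 CPM with Eµ-TCL1 alone and 6689, 6516, 6742 and 7996 CPM with both, and 5587, 6013 and 6071 CPM and 6351, 5955, 6437 and 6024 CPM in the lymph nodes of Eµ-TCL1 and Eµ-PRMT5/TCL1 mice. In T-like cells the lowest Eµ-PRMT5/TCL1 spleen, at 6516 CPM, lay above the highest Eµ-TCL1 spleen, at 6433 CPM. The Eµ-PRMT5 spleens overlapped both. With plain library sizes, as in CPM, the median log2 difference of all genes between these genotypes was 0.08 in T-like cells. The highest sum of the Eµ-PRMT5/TCL1 spleens, 7996 CPM, was that of spleen 4.

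Levels in Eµ-PRMT5/TCL1 spleen 4 differed with the length of the coding sequence, but did not rise steadily with it. Against the median of the 20 libraries, the 6 members with coding sequences under 300 bases had a median log2 difference of -1.74 in its B-like cells, and the 8 members of 300 to 450 bases one of -0.99. All genes of these lengths behaved alike, with medians of -1.26 over 160 genes and -0.79 over 391 genes, whereas the other 19 libraries lay between -0.17 and 0.23 for genes under 300 bases. T-like cells of that spleen gave -1.14 over 156 genes under 300 bases and -0.54 over 389 genes of 300 to 450 bases. The summed level of 80 ribosomal protein genes was 119129 CPM in its B-like cells against 213492 to 320452 CPM in the other libraries. The lymph node of the same mouse (Eµ-PRMT5/TCL1 LN 1) had a median of -0.01 for genes under 300 bases in B-like cells. Of the ring genes 6 are below 450 bases in coding length, with Snrpg the shortest and Snrpd3 the longest at 378 bases, and Snrpb, at 693 bases, was high there at 480 CPM. Over all genes, B-like cells of Eµ-PRMT5/TCL1 spleen 4 had medians of 0.33 from 450 to 900 bases and 0.58 from 900 to 1800. At 1800 bases or more the median was 0.35, where the other 19 libraries lay between -0.66 and 0.38. Eµ-PRMT5 spleen 4 had medians over all genes of 0.14 under 300 bases, within the range of the other libraries, and -0.66 at 1800 bases or more, the lowest. Its members were higher, with medians of 0.74 under 300 bases and -0.37 at 1800 or more. From 300 to 450 bases the members had a median of 0.86 and all genes one of 0.20. In its T-like cells all genes had 0.51 under 300 bases and -0.61 at 1800 or more, and the members 0.74 and -0.65. What set these levels was not tested.

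The first comparison asked whether Eµ-PRMT5 spleens differ from Eµ-TCL1 spleens in the RNA of the splicing machinery. In B-like cells 40 of the 46 genes were higher in Eµ-PRMT5 spleens, which in counts of members stands for an edgeR log2 difference above 0 after TMM scaling of the libraries, with a median of 0.31, against 50.9% of all genes higher and a median of 0.01 over all 12004 genes tested. No member passed edgeR's quasi-likelihood test with Benjamini-Hochberg adjustment at 0.05, where 0.00833% of all genes did. At an unadjusted p below 0.05 there were 10 members, all higher, where 9.75% of all genes were below it and higher, and DESeq2 called 6 members, all higher, where it called 3.62% of all genes higher. These were Snrpa1, Prpf3, Prpf4, Srsf2, Srsf7 and Srsf10. Each library came from 1 mouse, so these p-values measure the spread between mice.

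SR genes had the highest median of the lists, a difference between lists that was not tested. Srsf7, an SR protein with a zinc knuckle that takes part in exon inclusion and in export of mRNA, measured 749, 555, 593, 397 and 406 CPM in Eµ-PRMT5 spleens against 325, 258, 199.9 and 233 CPM with Eµ-TCL1. All 5 Eµ-PRMT5 values lay above all 4 Eµ-TCL1 values, an absence of overlap shared by 2.91% of all genes. The difference was 539.9 ± 146 against 254 ± 52.8 CPM, with an edgeR log2 change of 0.98 (SE 0.25; adjusted p = 0.108). Srsf10, which acts in splicing repression when dephosphorylated, measured 247, 179, 189.6, 148 and 128 CPM against 126, 116, 104 and 94.8 CPM, again with no overlap, and a log2 change of 0.60 (SE 0.19; adjusted p = 0.146). Srsf2, an exon-binding SR protein, measured 739.6, 539, 692, 468 and 506 CPM against 378, 405, 251 and 273 CPM without overlap. Srsf9 was the member with the lowest change at 20 CPM or more, at 75.9, 94.2, 84.2, 94.4 and 83.0 CPM against 80.7, 92.0, 111 and 133 CPM, and its log2 difference was -0.33 (SE 0.21; adjusted p = 0.422). Its groups overlapped.

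Among snRNP proteins, Snrpa1, a U2 snRNP protein that binds a stem-loop of U2 RNA together with Snrpb2, measured 112, 74.6, 108, 145 and 79.0 CPM in Eµ-PRMT5 spleens against 68.1, 52.9, 57.4 and 49.5 CPM in Eµ-TCL1 spleens. The groups did not overlap, and the log2 change was 0.84 (SE 0.27; adjusted p = 0.146). The tri-snRNP genes Prpf3 and Prpf4, whose products bind U4/U6, measured 56.1, 47.5, 40.1, 20.2 and 35.8 CPM against 27.01, 25.5, 14.6 and 19.7 CPM and 42.6, 34.3, 44.8, 30.6 and 30.9 CPM against 29.2, 24.1, 24.7 and 20.8 CPM. Prpf4 did not overlap and Prpf3 did, through spleen 4 of the Eµ-PRMT5 group. By role, 8 of 9 SR genes were higher with a median of 0.50, 8 of 8 tri-snRNP and Prp19 genes with 0.37, 6 of 7 Sm genes with 0.31, 9 of 10 U2 genes with 0.26, 3 of 3 U1 genes with 0.23 and 4 of 7 LSm genes with 0.13. The U2AF genes, U2af1 and U2af2, were higher as well.

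Eµ-PRMT5 spleen 4 set a large part of the Sm and LSm values. Without it, 30 of 46 members were higher with a median of 0.10, the Sm median was -0.02 with 3 of 7 higher, the LSm median was -0.35 with 1 of 7 higher, and the SR median was 0.51 with 8 of 9 higher. Lsm2 and Snrpd1, whose log2 differences were 0.81 and 0.76 in all libraries, were then at -0.01 and 0.27, and Snrpa1 was at 0.53. Srsf7 was then called (log2 change 0.99, SE 0.26, edgeR adjusted p = 0.0497), where 5.08% of all genes were called. With its cycling cells and those of all libraries also left out, Srsf7 remained past the threshold at 1.05 (edgeR adjusted p = 0.0498), where 3.16% of all genes were called.

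Leaving out Eµ-PRMT5/TCL1 spleen 4 as well, which is no part of this contrast but shares its estimate of the spread, gave 6 called members, where 8.31% of all genes were called. Srsf7 rose by 0.98 (edgeR adjusted p = 0.0372), Srsf2 by 0.73 (adjusted p = 0.0438) and Prpf3 by 0.86 (adjusted p = 0.0444). Lsm8, the subunit that keeps the U6 ring in the nucleus, fell by 0.81 (SE 0.16, adjusted p = 0.0274), Sf3b5, a small subunit of the SF3b complex that recognizes the branch point, fell by 0.63 (adjusted p = 0.0426), and Lsm4 fell by 0.60 (adjusted p = 0.0488). SR genes then had a median of 0.51 with 7 of 9 higher, and LSm genes one of -0.36 with 1 of 7 higher. The levels behind the lower calls were 72.5, 56.9, 74.0, 144 and 47.4 CPM against 92.9, 82.9, 115 and 93.1 CPM for Lsm8, where spleen 4 is the fourth value. Sf3b5 measured 137, 117, 183, 251 and 137 CPM against 195, 186, 219.7 and 178 CPM and Lsm4 185, 132, 152, 341 and 154 CPM against 227, 213, 223 and 171 CPM. In all 3 genes that spleen was above every Eµ-TCL1 value. The remaining Eµ-PRMT5 spleens overlapped the Eµ-TCL1 range for Sf3b5 and Lsm4. All genes under 300 bases had medians against the median library of -0.11 to -0.02 in these Eµ-PRMT5 and -0.02 to 0.15 in Eµ-TCL1 spleens. At 1800 bases or more the medians were -0.002 to 0.38 and -0.22 to -0.004. Lsm8, Sf3b5 and Lsm4 have coding sequences of 300, 258 and 414 bases, and Srsf7, Srsf2 and Prpf3 of 714, 663 and 2049. The part of coding length in these calls and in the split between SR and LSm genes was not tested.

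Other gene lists were examined in the same fit, in which edgeR called none of the related, nucleolar or cell cycle genes. Of 84 tested genes for methylosome, other spliceosome and splicing regulator proteins, 78 were higher in Eµ-PRMT5 B-like cells with a median of 0.39, 26 of them at an unadjusted p below 0.05, where 9.75% of all genes were higher at that p. DESeq2 called 13 of the 84 higher and 1 lower, where it called 3.62% of all genes higher. Endogenous mouse Prmt5 measured 32.6 ± 6.77 CPM (n = 5) in Eµ-PRMT5 spleens against 20.1 ± 2.74 CPM (n = 4), with a log2 difference of 0.64 (SE 0.22; edgeR adjusted p = 0.161). Nucleolar ribosome biogenesis genes were higher in 20 of 20 cases with a median of 0.70, 15 at an unadjusted p below 0.05 and 9 called by DESeq2, and summed to 3312 to 5242 CPM in Eµ-PRMT5 against 2173 to 2744 CPM in Eµ-TCL1 spleens. Cell cycle genes were higher in 18 of 24 cases with a median of 0.57 and none at an unadjusted p below 0.05. Their sum was 2445 CPM in Eµ-PRMT5 spleen 4, 65.7 to 162 CPM in the remaining Eµ-PRMT5 spleens and 128 to 1149 CPM in Eµ-TCL1 spleens, so that without spleen 4 most Eµ-PRMT5 values lay below the Eµ-TCL1 range. Within the B-like class, B cell markers summed to 2679 to 8432 CPM for Eµ-PRMT5 and 6692 to 8609 CPM for Eµ-TCL1 spleens, and plasma cell markers to 572 to 2598 CPM and 1202 to 3923 CPM. The part of any of these in the differences of the members was not tested.

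**Figure D2:**
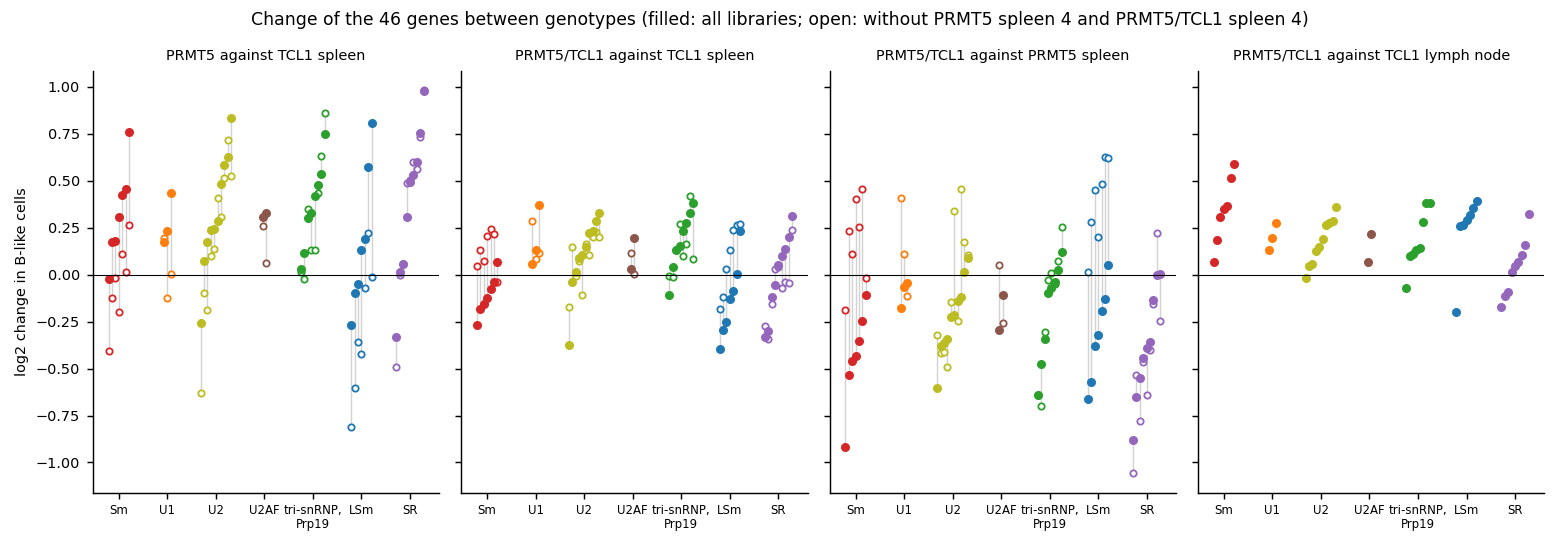
Log2 change of each of the 46 genes in B-like cells in 4 comparisons, grouped by role: filled points use all libraries, open points leave out both outlying spleens (no such libraries exist among the lymph nodes). In Eµ-PRMT5 against Eµ-TCL1, the SR genes have similar medians in both settings, 0.50 and 0.51, while LSm genes move from a median of 0.13 to -0.36.

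The addition of PRMT5 to TCL1 was addressed by setting spleens with both transgenes against the same Eµ-TCL1 spleens that served above. In B-like cells 28 of 46 members were higher with a median log2 difference of 0.05, against 49.5% of all genes. No member passed edgeR's test (0% of all genes did), none was below an unadjusted p of 0.05 (4.42% of all genes were), and DESeq2 called none (0.204% of all genes). Prpf8, the scaffold of the spliceosome's catalytic center, had the lowest p, at 97.0, 85.2, 78.6 and 86.9 CPM against 82.9, 72.7, 53.9 and 54.6 CPM. Its groups overlapped, and the log2 difference was 0.33 (SE 0.20; adjusted p = 1). Prpf19, a ubiquitin ligase of the activated spliceosome, had the highest value, 0.38 (SE 0.31; adjusted p = 1), from 72.7, 69.5, 77.9 and 189.6 CPM against 70.9, 80.4, 57.9 and 74.1 CPM, where spleen 4 of the Eµ-PRMT5/TCL1 group stood alone. Lsm8 had the lowest, -0.40 (SE 0.41; adjusted p = 1), from 79.4, 82.5, 86.9 and 50.7 CPM. Srsf9 (-0.33 (SE 0.22; adjusted p = 1)) and Sf3a1, a subunit of the SF3a complex of U2 (0.33 (SE 0.22; adjusted p = 1)), followed Prpf8 by p. Sf3a1 measured 60.9, 49.7, 56.0 and 102 CPM against 62.0, 53.3, 36.3 and 45.5 CPM, and Srsf9 87.9, 97.5, 69.4 and 95.2 CPM, both overlapping. The Sm median was -0.12 with 1 of 7 higher in all libraries and 0.13 with 6 of 7 higher without Eµ-PRMT5/TCL1 spleen 4. The LSm median was likewise -0.13 with 2 of 7 higher, and 0.13 with 5 of 7 higher without that spleen. Without it Prpf19 was at 0.08, Lsm8 at -0.18, Sf3a1 at 0.20, Prpf8 at 0.42 and Srsf9 at -0.27. Leaving out 1 library at a time gave 23 to 34 members higher and medians over the members of 0.01 to 0.12.

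Eµ-PRMT5/TCL1 against Eµ-PRMT5 spleens, a contrast that shares libraries with both of those above, gave 6 of 46 members higher and 40 lower, with a median log2 difference of -0.27 against -0.04 over all genes, of which 45.7% were higher. No member passed edgeR's test (0% of all genes did), 7 were lower at an unadjusted p below 0.05, where 5.41% of all genes were, and DESeq2 called 2, Srsf7 and Srsf10, both lower, where it called 1.33% of all genes. Srsf7 measured 269, 287, 159 and 476 CPM in Eµ-PRMT5/TCL1 spleens, and its 4th value lay within the Eµ-PRMT5 range given above. The log2 difference by edgeR was -0.88 (SE 0.25; adjusted p = 0.354) for Srsf7 and -0.65 (SE 0.19; adjusted p = 0.362) for Srsf10. Prpf6, a bridge between U5 and U4/U6, measured 84.3, 73.4, 78.1, 30.998 and 27.2 CPM in Eµ-PRMT5 and 36.1, 33.9, 37.2 and 35.0 CPM in Eµ-PRMT5/TCL1 spleens, with Eµ-PRMT5 spleens 1 to 3 high and 4 and 5 low, and a log2 difference of -0.64 (SE 0.26; adjusted p = 0.473). Snrpd1 had the lowest difference at -0.92 (SE 0.41; adjusted p = 0.498), and Snrnp200, the helicase that unwinds U4 from U6, the highest at 0.12 (SE 0.19; adjusted p = 0.865), with 47.8, 42.9, 35.7 and 38.9 CPM against 41.4, 45.6, 51.1, 30.4 and 27.2 CPM and overlap. Without both outlying spleens 23 members were higher with a median of -0.01, the Sm median was 0.23 with 5 of 7 higher, the LSm median 0.45 with 7 of 7 higher, and the SR median -0.46 with 1 of 9 higher. Snrpd1 was then at -0.19 and Snrnp200 at 0.26, while Srsf7, Srsf10 and Prpf6 were at -1.06, -0.53 and -0.64. The part of coding length in these differences between lists was not tested.

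In lymph nodes, Eµ-PRMT5/TCL1 against Eµ-TCL1 B-like cells gave 40 of 46 members higher with a median log2 difference of 0.19, against 52% of all genes. No member passed edgeR's test (0% of all genes did), DESeq2 called none (0.41% of all genes), and 1 member was higher at an unadjusted p below 0.05, where 2.4% of all genes were. That was Prpf8, with 110.0, 82.8, 82.3 and 84.3 CPM against 84.7, 73.9 and 63.8 CPM and a log2 difference of 0.38 (SE 0.16; adjusted p = 0.863). The Sm genes were all higher on the TMM scale with a median of 0.35, although Snrpb averaged 290.0 CPM in Eµ-PRMT5/TCL1 and 298 CPM in Eµ-TCL1 nodes, and Snrpf and Snrpg had differences of 0.59 (SE 0.27; adjusted p = 0.904) and 0.51 (SE 0.24; adjusted p = 0.904). Their values, given above, overlapped between genotypes, and Snrpd1 alone among the 46 did not, as for 1.18% of all genes. Lsm8 had the lowest difference, -0.20 (SE 0.20; adjusted p = 0.969), with 85.5, 67.7, 74.3 and 91.2 CPM in Eµ-PRMT5/TCL1 and 118, 99.3 and 82.2 CPM in Eµ-TCL1 nodes. SR genes had a median of 0.05 with 6 of 9 higher. With library sizes in place of TMM factors, 32 of 46 members were higher.

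The lymph node of each of 7 mice was compared with its own spleen in B-like cells. Of the members, 28 were higher in the lymph node, as were 52.4% of all genes, with a median of 0.04, and no member passed edgeR's test, where 0.0934% of all genes did. At an unadjusted p below 0.05 there were 2, where 12.7% of all genes were, and DESeq2 called the same 2, Srsf1 and Srsf10, where it called 2.87% of all genes. Srsf1, an SR protein that binds purine-rich exon enhancers, measured 106, 75.5 and 83.9 CPM in the lymph nodes of the Eµ-TCL1 mice against 62.4, 54.8 and 81.3 CPM in their spleens. In Eµ-PRMT5/TCL1 mice it measured 97.1, 51.5, 83.1 and 63.3 CPM in lymph nodes against 77.1, 47.9, 44.2 and 63.0 CPM in the matching spleens. The lymph node was higher in 7 of 7 mice, as it was for 1.39% of all genes, with a log2 difference of 0.39 (SE 0.12; adjusted p = 0.217). Srsf10 was also higher in 7 of 7 mice, with 165, 131 and 113 CPM in Eµ-TCL1 nodes against 126, 116 and 94.8 CPM in the spleens, and 150, 161, 146 and 106 CPM in Eµ-PRMT5/TCL1 nodes against 115, 127, 102 and 103 CPM. Its log2 difference was 0.32 (SE 0.11; adjusted p = 0.257). Lsm3 (0.26 (SE 0.16; adjusted p = 0.531)) followed by p, and Srsf3 had the lowest difference (-0.20 (SE 0.14; adjusted p = 0.567)), at 505, 332 and 429 CPM in Eµ-TCL1 and 468, 388, 382 and 257 CPM in Eµ-PRMT5/TCL1 nodes. Without the mouse of Eµ-PRMT5/TCL1 spleen 4, 23 of the 46 members were higher with a median of 0.00 and Lsm3 was at 0.10, and without the mouse of Eµ-TCL1 LN 1 there were 33 with a median of 0.09. DESeq2 gave adjusted p = 0.0461 for Srsf1 and adjusted p = 0.0388 for Srsf10.

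The same contrasts were made in T-like cells of the same libraries. Of a T-like cluster of 4176 cells led by Trbv12-1, 97.8% came from Eµ-PRMT5 spleen 5, which held 4888 T-like cells. A cluster led by Trbv17 came to 68.7% from Eµ-TCL1 spleen 1. Another, with Trbv13-2 among its leading genes, came to 71.0% from Eµ-TCL1 spleen 3. The part of these clusters in the T-like values was not tested. In Eµ-PRMT5 against Eµ-TCL1 spleens 38 of 46 members were higher, as were 48.1% of all genes, with a median of 0.15, none passed edgeR's test (0.0185% of all genes did), 3 were below an unadjusted p of 0.05 (7.08% of all genes were) and DESeq2 called none (0.297% of all genes). Srsf7 measured 536, 338, 389, 365 and 351 CPM against 268, 291, 226 and 230.5 CPM, with no overlap, as for 1.35% of all genes, and a log2 difference of 0.63 (SE 0.23; adjusted p = 0.612). Srsf2 measured 489, 288, 366, 357 and 432 CPM against 273, 294, 206 and 217 CPM, and Srsf3, a small SR protein, 478, 343, 341, 413 and 237 CPM against 339, 239, 242 and 218 CPM, both with overlap. Their differences were 0.65 (SE 0.28; adjusted p = 0.695) and 0.46 (SE 0.21; adjusted p = 0.696). Snrnp200 had the lowest, -0.30 (SE 0.24; adjusted p = 0.843), from 49.1, 52.7, 55.7, 23.3 and 42.0 CPM against 46.2, 58.3, 56.3 and 61.6 CPM. All 9 SR genes were higher with a median of 0.29, and without Eµ-PRMT5 spleen 4, which has 46 T-like cells of which 50% were cycling, they had a median of 0.33. The Sm median of 0.15 became 0.00 with 3 of 7 higher without that spleen, the median of all members 0.04 with 29 higher, and the difference of Snrnp200 -0.18.

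The remaining T-like comparisons gave no member called by edgeR, where 0% of all genes were, or by DESeq2, where 0%, 0.0836% and 0.81% of all genes were. Eµ-PRMT5/TCL1 against Eµ-TCL1 spleens gave 30 members higher, as were 47.1% of all genes, with a median of 0.08 and 0 at an unadjusted p below 0.05, where 4.26% of all genes were. Srsf3 had the lowest p there (0.46 (SE 0.22; adjusted p = 0.912)), at 331, 321.8, 318 and 597 CPM in Eµ-PRMT5/TCL1 spleens, followed by Sf3b1 (0.45 (SE 0.25; adjusted p = 0.912)), at 300.2, 257, 279 and 569.8 CPM against 272, 275, 188 and 195 CPM, and Srsf2 (0.49 (SE 0.30; adjusted p = 0.912)), at 373, 197, 266 and 739.8 CPM. The 4th spleen was the highest for all 3 genes. Snrpa, an RNA-binding protein of U1 snRNP, had the highest difference (0.64 (SE 0.43; adjusted p = 0.912)), at 46.3, 52.4, 62.5 and 129 CPM against 59.0, 33.7, 40.2 and 36.2 CPM, and Snrpd3 the lowest (-0.30 (SE 0.33; adjusted p = 0.942)), at 109, 151, 160.0 and 64.9 CPM against 120.5, 154, 154 and 155 CPM. Without the 4th spleen 35 members were higher with a median of 0.10, and without Eµ-PRMT5/TCL1 spleen 2 there were 21 with a median of -0.03. Without the 4th spleen the differences were 0.32 for Srsf3, 0.25 for Sf3b1, 0.15 for Srsf2, 0.36 for Snrpa and -0.05 for Snrpd3.

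Eµ-PRMT5/TCL1 against Eµ-PRMT5 spleens gave 18 higher, as were 47.5% of all genes, with a median of -0.04 and 0 at that p, where 3.99% of all genes were. Srsf9 had the lowest p (-0.30 (SE 0.21; adjusted p = 1)), at 32.3, 27.6, 26.4 and 42.7 CPM against 33.3, 36.4, 30.8, 62.1 and 28.3 CPM. Lsm7 had the lowest difference (-0.47 (SE 0.39; adjusted p = 1)), at 65.9, 84.5, 89.4 and 29.8 CPM against 74.7, 62.2, 69.9, 171 and 86.2 CPM, and without both outlying spleens its difference was 0.12 (edgeR adjusted p = 0.858). Sf3b2, an SF3b subunit, had the highest (0.20 (SE 0.16; adjusted p = 1)). Without both spleens 25 members were higher with a median of 0.05, and Srsf9 was at -0.17. Leaving out 1 library at a time gave 11 to 23 members higher and medians of -0.13 to -0.01.

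In lymph nodes 37 were higher, as were 48.9% of all genes, with a median of 0.18, 2 of them at that p, where 13% of all genes were. All 7 Sm genes were higher there on the TMM scale with a median of 0.29, although Snrpd3 averaged 127 CPM in Eµ-PRMT5/TCL1 and 128 CPM in Eµ-TCL1 nodes. U2af1, which reads the AG at the end of the intron, had the lowest p (0.51 (SE 0.16; adjusted p = 0.279)), at 212, 149, 173 and 148 CPM against 124, 121 and 134 CPM with no overlap, as for 2.47% of all genes. Snrpg measured 322.5, 213, 246 and 243 CPM against 226, 219.9 and 174 CPM (0.40 (SE 0.15; adjusted p = 0.331)) and Snrpd1 134, 148, 169 and 155 CPM against 105, 123 and 131 CPM (0.47 (SE 0.23; adjusted p = 0.425)), of which Snrpd1 did not overlap. Srsf1 had the lowest difference (-0.31 (SE 0.17; adjusted p = 0.463)), at 87.7, 39.4, 44.4 and 39.2 CPM against 67.1, 66.7 and 59.0 CPM. The median of the members was 0.08 without Eµ-TCL1 LN 1 and 0.31 without Eµ-TCL1 LN 3. Eµ-PRMT5/TCL1 LN 1 held 67 T-like cells, and without it the median was 0.24 with 39 members higher and Srsf1 was at -0.41. With plain library sizes the median of all genes in that contrast moved from -0.01 to -0.17, and 30 members were higher.

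Whether B-like and T-like cells differed in their change between genotypes was tested directly. No member passed edgeR's test for this in any of the 3 spleen contrasts, where 0%, 0.00771% and 0% of all genes did. For Eµ-PRMT5 against Eµ-TCL1, 5 members were at an unadjusted p below 0.05, where 9.64% of all genes were. The lowest adjusted p was 0.377, for Snrpa1, whose change was higher in B-like than in T-like cells by 0.51 (SE 0.15) on the log2 scale. Eµ-PRMT5/TCL1 gave 0 members at that p against Eµ-TCL1 (4.47% of all genes) and 5 against Eµ-PRMT5 (7.17% of all genes). Whether the genotype difference in B-like cells differed between lymph node and spleen was tested as well, and 0 members were at that p or called, where 2.15% and 0% of all genes were.

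Cycling cells were then set against other cells. Within each of 16 libraries the B-like cells scored as cycling, 5431 in all, were compared with the other 31717, with the library as a block. Of the Eµ-PRMT5 spleens only spleen 4 was among them, with 1995 of these cycling cells, as spleens 1, 2, 3 and 5 held 2 to 14. Of the 46 members 39 were called by edgeR, 35 higher and 4 lower in cycling cells, where 21.3% of all genes were called higher and 31.7% lower. The median log2 change was 0.32 against -0.08 over all genes. The 16 libraries came from 9 mice, 7 of which gave both tissues. With the libraries of each mouse summed, 35 members were called, 33 higher and 2 lower, where 19.5% of all genes were called higher and 24.4% lower, and Lsm2 (1.44) and Srsf5 (-0.55) were among them. Summed over the members, cycling cells had 7734 to 10035 CPM with a median of 8367, and other cells 5730 to 7441 CPM with a median of 6326, so the ranges did not overlap. A cycling cell held 1.33 to 2.28 times the UMIs of other cells of its library. Cycling is a cut on a score and not a cell type, and CPM scales out the UMIs per cell.

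LSm genes rose in B-like cells. Lsm2, shared by the nuclear U6 ring and the cytoplasmic ring that promotes decapping, measured 139.9 to 316.7 CPM with a median of 168 in cycling cells of the 16 libraries, and 44.6 to 95.2 CPM with a median of 59.6 in the others. The ranges did not overlap, and Lsm2 rose by a log2 change of 1.43 (SE 0.06, edgeR adjusted p = 1.08e-15). Lsm8 measured 68.2 to 227 CPM with a median of 145 against 39.8 to 110 CPM with a median of 74.2, and rose by 0.85 (adjusted p = 1.64e-13). Lsm3 measured 51.0 to 154 CPM with a median of 125 against 27.3 to 86.2 CPM with a median of 64.2, and rose by 0.87 (adjusted p = 1.53e-12). Lsm4 measured 169 to 361 CPM with a median of 281 against 117 to 226 CPM with a median of 168, and rose by 0.63 (adjusted p = 5.91e-11). All 7 LSm genes rose, with a median of 0.81.

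All 7 Sm genes rose as well, with a median of 0.41. Snrpd1 measured 109 to 496 CPM with a median of 274 in cycling cells against 72.4 to 188 CPM with a median of 141 in the others, a rise of 0.86 (edgeR adjusted p = 1.84e-12). Snrpe measured 116 to 589 CPM with a median of 501 against 92.9 to 352 CPM with a median of 297, a rise of 0.61 (edgeR adjusted p = 1.43e-11). The ranges over libraries overlapped for both, and the difference was within libraries. Of the members 25 were higher in cycling cells in all 16 libraries, as were 9.15% of all genes, and 31 in all 9 mice, as were 15.1%.

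The SR genes split. Srsf5, an SR protein of the same family as Srsf1, fell by 0.59 (edgeR adjusted p = 4.37e-09), at 103 to 318 CPM with a median of 167 in cycling cells against 103 to 464 CPM with a median of 267 in the others. It was higher in cycling cells in 1 of 16 libraries. Srsf11 fell by 0.23 (edgeR adjusted p = 0.000488), and by 0.21 (adjusted p = 0.0171) with the libraries of each mouse summed, and 6 of the 9 SR genes rose. Among the larger factors Sf3b1, the SF3b scaffold and a recurrently mutated gene in chronic lymphocytic leukemia, had a log2 change of -0.19 (edgeR adjusted p = 0.00553) over libraries, and Prpf6 one of -0.22 (adjusted p = 0.00736). Neither was called with the libraries of each mouse summed, at -0.12 (edgeR adjusted p = 0.210) and -0.16 (adjusted p = 0.106), nor were Snrpb2, Prpf3 and Srsf9, which were called higher over libraries, while Sf3b4 was called higher in that fit alone. The counts that follow are over libraries. In U2 snRNP 7 of 10 genes rose and 1 fell, in the tri-snRNP and Prp19 group 5 of 8 rose and 1 fell, 2 of 3 U1 genes rose, and of U2AF U2af1 rose by 0.49. Sf3b4, Sf3b3, Srsf6, Snrnp200, Snrnp70, U2af2 and Prpf8 were not called. Of the 84 related genes 41 rose and 15 fell, and of the 17 methylosome and snRNP assembly genes among them 9 rose and 1 fell. The shares of all genes to set beside these counts are those given above for the fit over libraries.

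T-like cells gave the comparison a second time in 11 libraries, with 1271 cycling and 23059 other cells. Of the members 31 were called, 26 higher and 5 lower, where 23.9% of all genes were called higher and 27.5% lower, and the median change was 0.26. These libraries came from 8 mice, and with the libraries of each mouse summed 29 members were called, 27 higher and 2 lower, where 23.5% and 22.6% of all genes were. Sf3b1, Snrnp200 and Prpf8, lower over libraries, were not called in that fit, and Snrpd2 was called higher in it alone. With plain library sizes the median of all genes moved from -0.07 to 0.11, and 37 members were called, 35 of them higher. Lsm2 measured 97.7 to 177 CPM with a median of 137 against 34.2 to 50.7 CPM with a median of 40.2, and rose by 1.58 (edgeR adjusted p = 4.00e-12). The ranges did not overlap. Lsm4 measured 183 to 422 CPM with a median of 297 against 103 to 267 CPM with a median of 135, and rose by 0.92 (adjusted p = 9.33e-10). Srsf3 measured 416 to 813 CPM with a median of 480.3 against 173 to 474 CPM with a median of 258, and rose by 0.75 (adjusted p = 1.23e-07). Snrpd1 measured 96.4 to 329 CPM with a median of 300.2 against 76.4 to 204 CPM with a median of 144, and rose by 0.79 (adjusted p = 1.92e-07). Snrpe, at a median of 601 against 328 CPM, rose by 0.61 (adjusted p = 5.37e-08). Srsf5, at a median of 219 against 293 CPM, fell by 0.68 (adjusted p = 3.93e-08) and was lower in 11 of 11 libraries. Lsm8 had a log2 difference of -0.04 in T-like cells and was not called, at 157 to 330 CPM with a median of 226 in cycling against 182 to 255 CPM with a median of 215 in other cells. The difference between the classes in the cycling change was not tested.

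**Figure D3:**
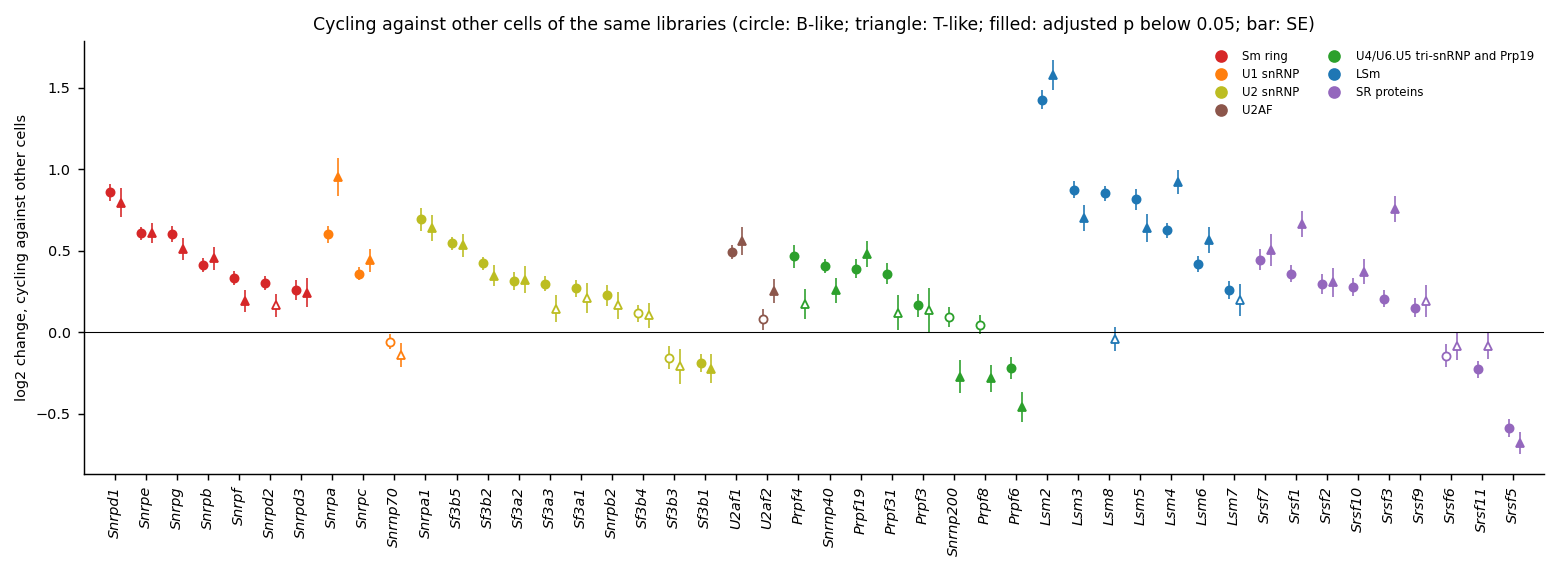
Log2 change of the 46 genes between cycling and other cells of the same libraries, by role, in B-like cells (circles, 16 libraries) and T-like cells (triangles, 11 libraries). Filled points have an edgeR adjusted p below 0.05 and bars are the SE, with Lsm2 at 1.43 and 1.58 at the top and Srsf5 at -0.59 and -0.68 at the bottom.

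The windows at the gene starts are shown for the members that rose most and fell most in cycling cells, and for Srsf7, with matches to searched motifs in capitals. They run from 250 bases before to 50 bases after the start on RefSeq GRCm38.p6: Lsm2 (chr17:34981604-34981903, plus strand, CCAAT), Srsf5 (chr12:80945249-80945548, plus strand, the ETS motif CCGGAAG in both orientations) and Srsf7 (chr17:80207256-80207555, minus strand, CCGGAAG).
Lsm2: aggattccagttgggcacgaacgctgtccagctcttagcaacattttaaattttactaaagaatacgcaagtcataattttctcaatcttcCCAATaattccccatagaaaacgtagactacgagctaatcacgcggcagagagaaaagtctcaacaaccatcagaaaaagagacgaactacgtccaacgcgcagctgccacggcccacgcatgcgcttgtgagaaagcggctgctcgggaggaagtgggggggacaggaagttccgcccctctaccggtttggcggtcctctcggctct
Srsf5: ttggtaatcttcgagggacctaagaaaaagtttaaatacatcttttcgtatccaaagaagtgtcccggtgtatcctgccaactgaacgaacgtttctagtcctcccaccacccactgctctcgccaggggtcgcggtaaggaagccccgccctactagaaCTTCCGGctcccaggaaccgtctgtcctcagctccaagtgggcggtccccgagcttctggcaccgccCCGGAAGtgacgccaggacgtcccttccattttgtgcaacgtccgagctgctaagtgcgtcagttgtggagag
Srsf7: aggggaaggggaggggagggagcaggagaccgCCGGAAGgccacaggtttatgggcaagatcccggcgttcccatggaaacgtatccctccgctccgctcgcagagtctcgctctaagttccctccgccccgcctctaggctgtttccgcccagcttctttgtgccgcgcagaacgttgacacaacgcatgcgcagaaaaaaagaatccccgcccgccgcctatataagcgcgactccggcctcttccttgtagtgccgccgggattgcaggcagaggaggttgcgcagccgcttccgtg
Both strands were searched for 4 motifs in the 39 members with a RefSeq window. CCGGAAG was found for 17 of them, against 9.93% of all 27025 genes, CCAAT for 16 (41.1% of all genes), the E2F motif TTTNGCGC for 3, Snrnp70, Snrpa and Srsf10 (1.57%), and the E-box CACGTG for 2, Prpf3 and Snrpa (8.09%). In Snrpa the E2F and E-box matches share 1 base, and no other matches of different motifs overlapped among the members. A match describes letters only.

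Differences between cell classes are given without a test because clusters were built from the same cells, although with the members left out of clustering. The lowest count of a member in a library was 2 UMIs in plasma-like, 1 in monocyte/macrophage-like, 7 in progenitor-like and 0 in neutrophil-like cells. Between B-like and T-like cells the median within-library log2 difference of the members was 0.14 over 20 libraries, against 0.02 for all genes. Srsf9 was higher in B-like cells in 20 of 20 libraries, at a mean of 95.8 against 34.7 CPM and a median log2 difference of 1.42. Lsm8 was lower in 20 of 20, at 84.8 against 207 CPM and -1.36. In all, 7 members were higher and 1 lower in B-like cells in every library, where 11% and 9.44% of all genes were. SR genes had a median of 0.47 and Sm genes of -0.01. Without cycling cells the median of the members was 0.09, and 4 members were higher and 1 lower in every library, where 10.2% and 9.59% of all genes were.

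Plasma-like cells, measured in 8 libraries, had the lowest shares with neutrophil-like cells. Of a plasma-like cluster of 739 cells, 98.8% came from Eµ-PRMT5/TCL1 spleen 4, and of another of 1235 cells, 57.3% came from Eµ-TCL1 spleen 1. All 46 members were lower than in B-like cells in all 8 libraries, with a median of -1.20, where 61.8% of all genes were, and the sums were 1984 to 4566 CPM with a median of 3179. Immunoglobulin RNA took 15.98% to 54.7% of their UMIs, and in CPM of the other UMIs the median was -0.65 against -0.27 for all genes, with 26 members lower in all 8 libraries, as were 28.5% of all genes. Snrpb2, a U2 snRNP protein, was the lowest member at -2.01, and Prpf19 the highest at -0.57. By group, sums were 1984 to 3412 CPM in 4 Eµ-PRMT5 spleens, 2946 and 4566 CPM in 2 Eµ-TCL1 spleens, 3648 CPM in Eµ-PRMT5/TCL1 spleen 4 and 4496 CPM in 1 Eµ-TCL1 lymph node.

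Monocyte/macrophage-like cells (16 libraries) had sums of 5585 to 7018 CPM, and the 3 spleen genotypes overlapped at 5978 to 6514 CPM in Eµ-PRMT5, 5983 to 7018 CPM in Eµ-TCL1 and 5699 to 6687 CPM in Eµ-PRMT5/TCL1. Against B-like cells 12 of 46 members were above 0, as were 52.2% of all genes, with a median of -0.23, 1 was higher and 4 were lower in every library, where 16.7% and 12.2% of all genes were. Snrpb2 was the 1, higher in 16 of 16 libraries with a median of 0.59. Progenitor-like cells (12 libraries) had the highest sums, 6930 to 11815 CPM with a median of 8742, and 35 members were above 0 relative to B-like cells, as were 57.3% of all genes, 7 of them higher in all 12 libraries, as were 13.5% of all genes. LSm genes had a median of 0.64 and Sm genes of 0.47, with 7 of 7 above 0 in each list, and SR genes one of -0.21. Lsm2 was the highest at 1.06, from means of 169 and 98.6 CPM, and Srsf5 the lowest at -0.45. Without cycling cells, in 9 libraries, the median of the members moved from 0.26 to 0.12, and 3 members were higher in every library, where 11.7% of all genes were.

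Neutrophil-like cells (14 libraries) had sums of 2702 to 4305 CPM with a median of 3068, and 38 members were lower than in B-like cells in every library, where 43.9% of all genes were. The median was -1.19 against -0.67 for all genes. Lsm7 was the lowest at -2.37 and Lsm8 the highest at -0.19. Without cycling cells in either class the median was -1.86, against -0.81 for all genes. The sums overlapped between genotypes, at 2722 to 4305 CPM in Eµ-PRMT5, 2702 to 3568 CPM in Eµ-TCL1 and 2789 to 3816 CPM in Eµ-PRMT5/TCL1 spleens.

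**Figure D4:**
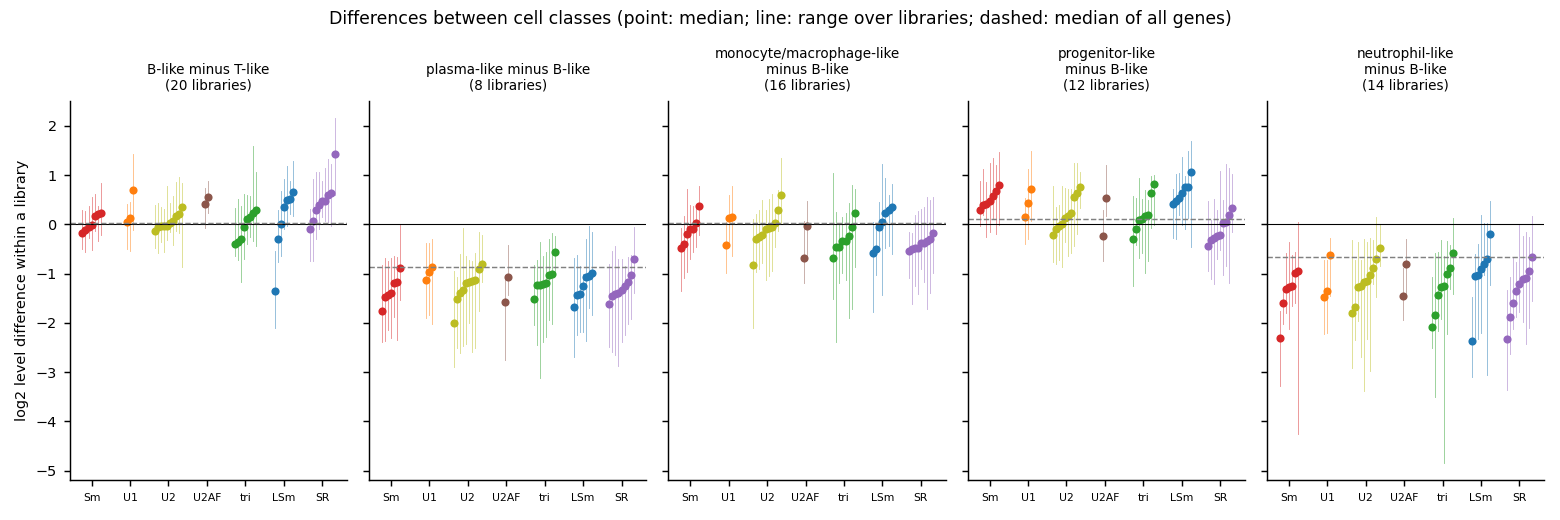
Within-library log2 difference in CPM (with 1 CPM added) of each member between cell classes, in 5 panels: points are medians and bars the range over the libraries that hold both classes, and the dashed line is the median of all genes. Most members lie below the dashed line in plasma-like and neutrophil-like cells, where their medians are -1.20 and -1.19 and 3 and 5 of the 46 lie above it, and Lsm8 stands apart at -1.36 in B-like against T-like cells.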

How the data were processed

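Unselected live cells were processed with the 10x Genomics 3′ v2 chemistry. The files deposited by the authors hold raw UMI counts for every barcode, with no normalization, as matrices of 31053 genes by 737280 barcodes per library. The submitters' notes name Cell Ranger 2.0.1, Seurat 2.2.1 and GRCm38, while the matrix headers give software version 3.1.0. The deposited counts were used as they stand. Because reads are tagged at 3′ ends, levels were not compared between genes, and reads of near-identical copies may be split or lost.

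Barcodes were kept as cells at or above a UMI cut set to the 99th percentile of the top 3000 barcodes divided by 10, if they held 200 or more genes and no more than 10% mitochondrial UMIs (87773 cells). Doublets were scored by simulation and the expected number, 0.8% per 1000 cells, was removed, which left 84231 cells. Cells were clustered with Leiden (scanpy 1.11.5, igraph 0.11.9, 2000 variable genes without the 46 members, 30 components, 15 neighbors, resolution 1.0) into 37 clusters named by marker lists, and 979 cells stayed unnamed. Of these, 895 formed 1 cluster with all 10 B cell markers and 60% of the T cell markers, and 64.5% of it came from Eµ-TCL1 LN 2. That lymph node had 577 unnamed and 845 B-like cells, and the unnamed ones are in none of the B-like comparisons. Classes with at least 20 cells in a library were used.

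Counts were summed per library and class and tested with edgeR 4.0.16 (R 4.3.3, limma 3.58.1) by quasi-likelihood F-test with TMM factors, filterByExpr and Benjamini-Hochberg adjustment over all genes at 0.05. The spleen fits held all 13 spleens. Lymph node against spleen and cycling against other cells used the mouse or the library as a block. Lymph nodes and spleens were paired by the animal named in the titles. Replicate numbers of different genotypes belong to different mice, so they were not used to pair libraries. Class differences used log2(CPM + 1). DESeq2 1.42.0, plain library sizes, no low-count filter, no immunoglobulin genes, only cells with at least 2000 UMIs, no cycling cells, a cycling cut of 0.1%, Xist as a covariate, a replicate block and leaving out each library were the alternatives. The comparison of cycling T-like cells, the settings that leave out both outlying spleens and the fits on libraries summed by mouse were chosen after seeing the data. The fits were tested on simulated data. Python 3.11.15, numpy 2.4.6, pandas 2.3.3, scipy 1.17.1 and matplotlib 3.10.9 were used, and gene positions came from GENCODE on GRCm38.

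The members and all lists were chosen with earlier results of these data known. Values in every library are given for the Sm ring genes in B-like cells and for members past an adjusted p of 0.05 between genotypes or tissues (at most the 6 of lowest p), and as ranges between cycling and other cells. Where fewer than 3 passed, the 3 of lowest p were taken, and the largest changes up and down at a mean of at least 20 CPM were added. Other members named with values were chosen after their values were seen.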

Additional observations from a re-analysis of the deposited data

Results flagged for a closer look

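Among 156 groups of values examined, 26 held a library whose gap to the nearest of the others was large for the range of its group by Dixon's criterion at 95%, which is 16.7%. The groups did not cover all members, and members with values given were partly chosen by low p or large change. The 1 in 20 that chance alone gives for unselected groups therefore cannot be set beside that share. Lsm2 in B-like cells of Eµ-PRMT5 spleen 4, at 282 CPM (71.8 to 93.8 in that group's others), was not among the 26. Of the 26, 10 came from Eµ-PRMT5 spleen 4.

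In B-like cells of Eµ-PRMT5 spleen 4, Snrpd2 was at 319 CPM (others 154 to 195), Snrpf at 588 CPM (253 to 281), Snrpg at 497 CPM (209 to 284) and Lsm8 at 144 CPM (47.4 to 74.0), and 75.8% of cells were cycling (0.70% to 2.44%). In its T-like cells Snrpa was at 159 CPM (34.2 to 53.5), Snrpd3 at 225 CPM (124 to 144), Srsf9 at 62.1 CPM (28.3 to 36.4) and Lsm7 at 171 CPM (62.2 to 86.2), and 50% were cycling (0.85% to 4.77%). All 4 T-like levels rest on 46 cells.

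In B-like cells of Eµ-PRMT5/TCL1 spleen 4, Snrpb was at 479.6 CPM (261 to 289 in the others), Prpf19 at 189.6 CPM (69.5 to 77.9), Snrpd2 at 60.7 CPM (202 to 227) and Snrpe at 102 CPM (324 to 364). In its T-like cells Srsf3 was at 597 CPM (318 to 331), Sf3b1 at 569.8 CPM (257 to 300.2), Srsf1 at 62.1 CPM (38.1 to 42.1) and Snrpg at 79.6 CPM (313 to 339), with a sum over the 46 members of 7996 CPM (6516 to 6742).

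The lymph node of the same mouse, Eµ-PRMT5/TCL1 LN 1, had Prpf19 at 203 CPM (64.3 to 68.2) and Prpf8 at 110.0 CPM (82.3 to 84.3) in B-like cells, and Srsf1 at 87.7 CPM (39.2 to 44.4) and Sf3b2 at 307 CPM (181 to 189.8) in T-like cells. Prpf19 in B-like cells and Srsf1 in T-like cells were thus above the rest of their groups in both tissues of this mouse.

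In T-like cells, Srsf7 was at 536 CPM in Eµ-PRMT5 spleen 1 (338 to 389), and Eµ-TCL1 spleen 1 had Snrpd3 at 120.5 CPM (154 to 155) and 8.13% cycling cells (0.55% to 1.10%).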

How the results depend on the processing

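Where all libraries were used, no member was called by edgeR in any genotype or tissue comparison under any setting, and DESeq2 called 6 members in Eµ-PRMT5 against Eµ-TCL1, 2 in Eµ-PRMT5/TCL1 against Eµ-PRMT5 and 2 in lymph node against spleen B-like cells. Without Eµ-PRMT5 spleen 4, 1 member was called in the first of these, 1 without cycling cells of any library as well, and 6 without both outlying spleens, settings of which the last 2 were chosen after seeing the data. Leaving out 1 library at a time gave 0 to 1 members there, 0 in the other genotype and tissue comparisons, 38 to 40 for cycling B-like and 28 to 34 for cycling T-like cells. The median over members moved with it from 0.10 to 0.40 in the first comparison, from 0.01 to 0.12 and -0.34 to -0.06 in B-like cells of Eµ-PRMT5/TCL1 against Eµ-TCL1 and Eµ-PRMT5 spleens, from 0.00 to 0.09 in lymph node against spleen, and from 0.08 to 0.31 in T-like cells of lymph nodes. In T-like cells of Eµ-PRMT5/TCL1 against Eµ-PRMT5 spleens it moved from -0.13 to -0.01. In T-like cells of Eµ-PRMT5/TCL1 against Eµ-TCL1 spleens it turned, from -0.03 to 0.13. It also turned to -0.01 with Xist as a covariate in B-like cells of these groups, and in T-like cells of Eµ-PRMT5/TCL1 against Eµ-PRMT5 spleens to 0.02 with plain library sizes and 0.05 without both outlying spleens. In Eµ-PRMT5/TCL1 against Eµ-PRMT5 T-like cells, Lsm7 turned from -0.47 to 0.12 without both outlying spleens. The neutrophil-like difference moved to -1.86 without cycling cells. A replicate block gave 0 called members in each genotype comparison, and no block gave 0 in lymph node against spleen. Deviations of same-numbered libraries of different genotypes correlated at -0.06 to 0.23. The cause of these changes was not tested. Counts of called members stayed within 1.5 times, and class medians within the spread between libraries, in 198 further checks, single genes kept their direction and side of the threshold in 945, and 10 single genes passed the threshold under an alternative. With 3 to 5 mice a group and 46 T-like cells in 1 library, differences of the size seen here mostly had adjusted p-values above 0.05, which does not show that levels were equal.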
